A study of Arabidopsis thaliana with 27 samples.

Results

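The genes described here encode proteins of the cytosolic ribosome of Arabidopsis thaliana, and each of them has at least 1 paralogue listed that encodes the same protein. A list of 60 loci for 25 proteins was matched by locus to the probe sets of the ATH1 array. Of these, 29 genes for 14 proteins had a probe set assigned to that gene alone, out of 13356 genes so measured in all, and each had exactly 1 such probe set. For 10 of these proteins at least 2 paralogues were measured, which makes 25 genes, and for S13, S3, L18 and L6 a single gene was measured. A further 6 loci share 3 probe sets with a paralogue (AT2G31610 with AT3G53870 for S3, AT1G74060 with AT1G74050 for L6, and AT2G09990 with AT5G18380 for S16), and no value is given for them. The annotation used names no probe set for the other 25 loci, which were not analysed here. They include both listed genes for S6 (AT4G31700 and AT5G10360), all 3 for S18 and L10, and the pairs for L5, L24, L23a, L27a, L3, S5 and Sa.

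The cytosolic ribosome has a small (S) subunit that reads the mRNA and a large (L) subunit that joins amino acids. Most of its proteins are encoded in Arabidopsis by several paralogous genes, and any one ribosome carries the product of one of them at a given position. Demand for new ribosomes is high in dividing and growing cells such as those of the root meristem, so the genes of ribosomal proteins tend to rise and fall together. The question here is which paralogues of the same protein left that common course between marker lines or between stages of the root.

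RNA was measured on 27 arrays, 1 per sample, from plants grown on MS medium with 4.5% sucrose and a day of 16 h light and 8 h dark. Of these, 15 arrays came from 5 GFP marker lines with 3 arrays each: J3411 (C24 background; lateral root cap and epidermis), SCR (Landsberg; endodermis and quiescent centre), WOL (Columbia; stele, fading from the elongation zone on), GL2 (Columbia; atrichoblasts, the epidermal cells without hairs) and J0571 (Columbia; endodermis, cortex and quiescent centre). Replicate 1 of SCR carries no tissue label. The other 12 arrays came from Columbia roots, 4 per stage: stage I up to about 0.15 mm from the tip, where the root reaches its full diameter, stage II at about 0.30 mm, where cells start to elongate, and stage III from 0.45 to 2 mm, where hairs are fully grown. The labels do not say how the marked cells were collected or whether replicates came from separate cultures, so the p-values rest on a spread between samples that may be technical. Genetic background and line coincide for J3411 and SCR and cannot be told apart.

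Values are MAS5 signals on a linear scale. Signals of different probe sets do not compare as amounts of RNA, so paralogues were set against each other only through the change of their ratio. Markers were set against the labels. Their lists were chosen with earlier results of these data known, so this is no independent check of the labels. Both endodermis genes measured of 7 listed (SGN1 and GSO1) passed the test as higher in SCR and in J0571, all 4 measured root cap genes of 8 as higher in J3411, both cortex genes of 3 as higher in J0571, and PHV, the stele gene measured of 8, as higher in WOL. The quiescent centre gene AGL42, 1 of 2 listed, was at 7.17 to 24.1 in J0571 against 38.7 to 56.6 in SCR and 50.4 to 65.4 in WOL. No listed gene of hairless epidermis was measured, so the label of GL2 has no check of its own. Some markers of other tissues were also called higher: the root cap gene sks15 in GL2 (log2 difference 1.96, adjusted p = 0.0118), the root cap gene PASPA3 (2.03, adjusted p = 0.00582) and the endodermis gene SGN1 (1.60, adjusted p = 0.0389) in WOL, and the cortex gene AT1G09750 in SCR (1.70, adjusted p = 0.00045). Both measured root hair genes of 5 (EXPA7 and EXPA18) were higher in WOL, and EXPA7 was at 186 on J3411 replicate 3 against 24.1 and 18.7 on the other J3411 arrays. GSO1 was at 1374 on J0571 replicate 2 against 449 and 357 on the others. The cre spike-in control split the arrays into a low class of 8 (replicates 1 and 2 of every stage, replicates 2 and 3 of SCR) and a high class of 19. On the stage arrays the signal of the 3' over the 5' GAPDH probe set, which rises where RNA is degraded or labelling is short, moved with that class. It was 4.34 to 7.85 in the low and 14.9 to 31.7 in the high class.

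The 29 genes shared a steep fall along the root. Their mean log2 signal was 10.50 to 11.12 on the stage I arrays, 10.21 to 10.33 in stage II and 8.61 to 9.20 in stage III, with no overlap between stages. From stage I to III, 28 of 29 genes fell and 0 rose (limma, Benjamini-Hochberg adjusted p under 0.05 over 22746 probe sets), against 43.1% of all probe sets called in either direction and 22.1% called lower. The median log2 difference of the 29 was -1.70 (range -3.33 to -1.02), against 0.07 over all probe sets. The gene that did not pass was AT5G20290, which encodes the small-subunit protein S8, with a log2 difference of -1.02 (SE 0.42, adjusted p = 0.0634), although its 4 stage III signals lay below all of stage I, as they did for all 29 genes and, in either direction, for 40.4% of all probe sets. Most of the fall came between stages II and III, where the same count of 28 of 29 genes fell (median -1.24, with 30.9% of all probe sets called and 15.2% called lower). Between stages I and II, 5 of 29 fell (median -0.41, with 11.1% of all probe sets called lower and 8.99% higher). In the high spike-in class alone the median from stage I to III was -2.22, with 29 of 29 called and 36.2% of all probe sets. Within the low class it was -1.56, with 27 called and 35.8% of all probe sets. In such bulk samples fewer cells of a type and less RNA per cell cannot be told apart.

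**Figure D1:**
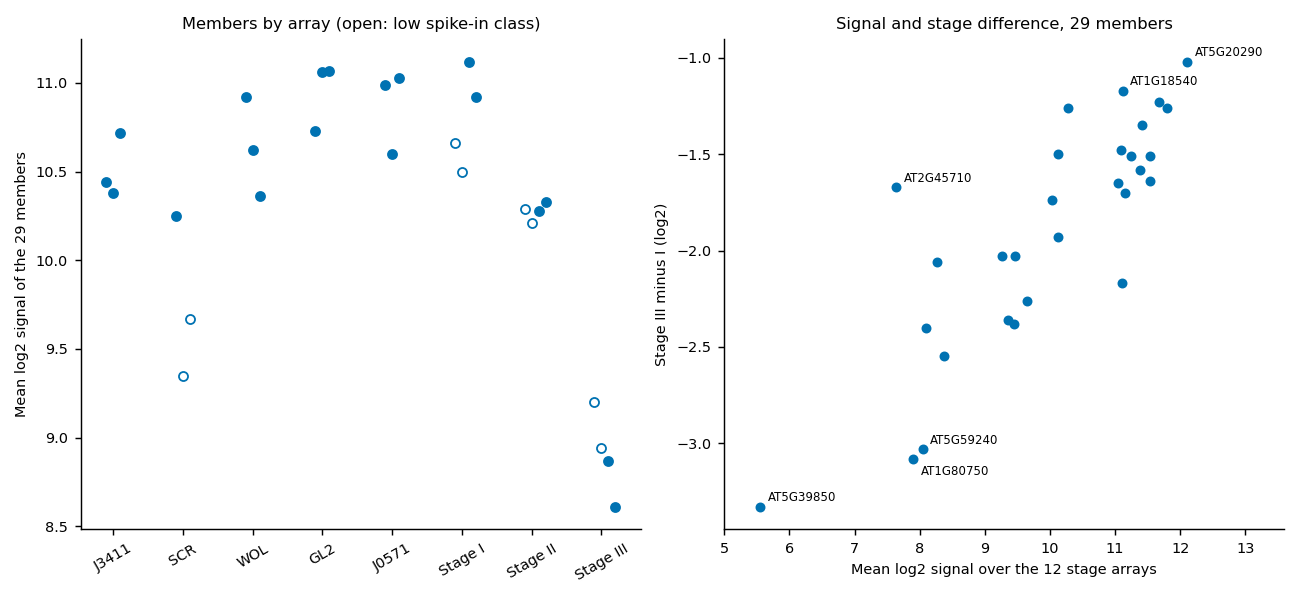
Left, mean log2 signal of the 29 ribosomal protein genes on each of the 27 arrays by line and stage, with open circles for the low spike-in class. Right, log2 difference of stage III minus I (y axis) against mean log2 signal over the 12 stage arrays (x axis) for each gene: the stage III arrays lie at 8.61 to 9.20 on the left, and genes with dim probe sets fell most on the right.

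Other genes of the ribosome also fell from stage I to III. Of 104 other cytosolic ribosomal protein genes measured out of 170 listed, 87 fell from stage I to III and 0 rose, with a median of -1.74. All 7 measured of 24 listed genes of ribosome biogenesis fell as well, by a median of -2.56. Their course by step differed from that of the 29. All 7 were already called lower from stage I to II, where 11.1% of all probe sets were. Their median at that step was -1.37, against -0.41 for the 29, and -1.45 from stage II to III. WDR12 and BOP1, partners in a complex that matures rRNA of the large subunit, had log2 differences of -2.51 and -2.56. NOB1, which cleaves the rRNA of the small subunit, had -2.09, and the 7 genes, with NOP58-2, a core protein of box C/D snoRNPs, among them, spanned -4.02 to -1.87. Both measured of 12 cell division genes, the Aurora kinase genes AUR1 and AUR2, were also lower in stage III than in stage I (median -1.86). From stage I to II they had log2 differences of -1.24 and -1.98, and from II to III of -0.67 and 0.17. The lateral root cap genes, high in stage I, fell in 3 of 4 cases, and both root hair genes rose by a median of 4.66. The part of these shifts in tissue make-up in the fall of ribosomal protein genes was not tested.

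To find paralogues off the common course, the mean log2 signal of the 29 genes was subtracted from each array and the same fit was run again over all probe sets. The result is called a departure here: how far a gene moved beyond, or short of, the average of the 29. Since that average fell so far from stage I to III, 86.6% of all probe sets departed from it in that comparison, and 80.6% from stage II to III and 21.1% from I to II. Most of these were upward: 84.6% of all probe sets departed upwards and 1.92% downwards from stage I to III. Adjusted p-values there hardly exceed unadjusted ones, so both are given. The departures of the 29 sum to 0 by construction. Among the 29 genes, 10 departed from stage I to III, 6 downwards and 4 upwards, and 11 had an unadjusted p under 0.05. There were 3 from stage II to III and 2 from I to II, all downwards, where 0.523% and 2.83% of all probe sets departed downwards.

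**Figure D2:**
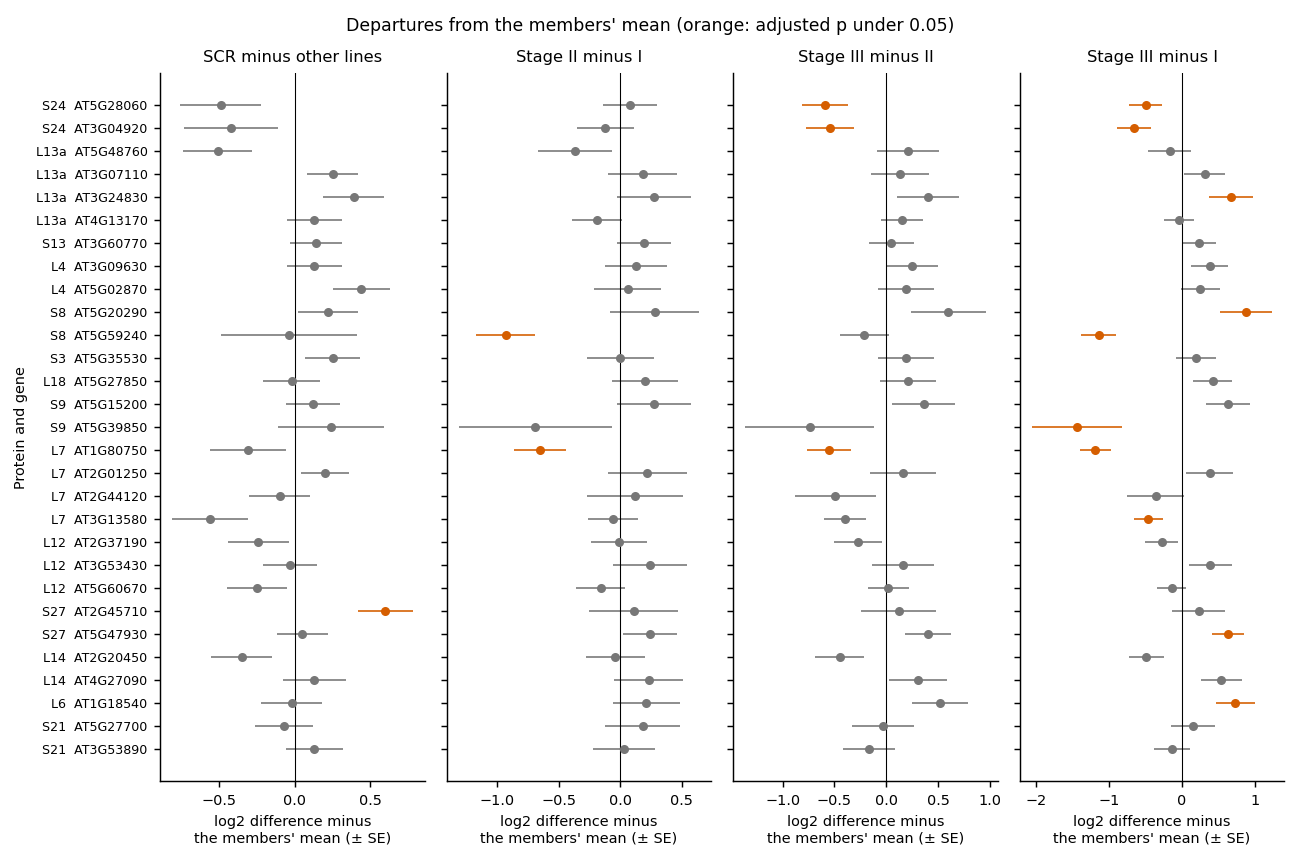
Departure of each of the 29 genes (log2 difference minus the mean of the 29, ± SE from limma) in SCR against the other 4 lines and between stages. Orange points passed an adjusted p of 0.05: 1 gene in SCR, 2 in stage II minus I, 3 in stage III minus II and 10 in stage III minus I.

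S8, a protein of the small subunit, had the largest change of a paralogue ratio among those whose stages did not overlap. AT5G59240 had signals of 622, 687, 770 and 928 in stage I, of 258, 262, 335 and 236 in stage II and of 134, 87.6, 116 and 45.3 in stage III. Its stages did not overlap, and it fell 8.18-fold from stage I to III (log2 difference -3.03, SE 0.27, adjusted p = 9.76e-07). The paralogue AT5G20290 was at 3841, 3564, 8628 and 10414 in stage I, at 4002, 2839, 7602 and 7349 in stage II and at 2722, 2772, 3526 and 2751 in stage III. On low-class arrays it lay between 2722 and 4002 in all stages, and on the high-class arrays of stages I and II between 7349 and 10414.

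AT5G59240 fell by more than the average of the 29 already from stage I to II (departure -0.93, SE 0.24, adjusted p = 0.00909, unadjusted p = 0.00106). Its departure from stage I to III was -1.14 (SE 0.24, adjusted p = 0.000297, unadjusted p = 0.000162). AT5G20290 departed upwards, which is to say that its difference was smaller than the average fall (departure 0.88, SE 0.36, adjusted p = 0.0322, unadjusted p = 0.0273). The log2 ratio of AT5G20290 over AT5G59240 rose from 2.99 ± 0.58 (SD, n = 4) in stage I through 4.20 ± 0.66 in stage II to 5.00 ± 0.63 in stage III. The stage III ratios lay above all of stage I (difference 2.01, two-sided exact permutation test, p = 0.0286, the smallest that 4 arrays against 4 can give).

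The call for AT5G59240 from stage I to II was lost in the high class (-0.87, adjusted p = 0.0962) and kept in the low (adjusted p = 0.0253). That from stage I to III held in each class, with departures of -1.22 in the high class (adjusted p = 0.00625) and -1.06 in the low class (adjusted p = 0.00298). That for AT5G20290 was 1.08 in the low class (adjusted p = 0.00479) and 0.67 in the high class (adjusted p = 0.0809), and it was lost without stage I replicate 1 or 2 or stage III replicate 3 or 4. Among the lines AT5G59240 was dim, at 35.4 to 186 in J3411, 21.2 to 96.5 in SCR, 106 to 153 in WOL, 90.3 to 323 in GL2 and 61.3 to 127 in J0571. AT5G20290 spanned 2945 to 8536 there, and neither gene passed in a line.

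L7, a protein of the large subunit, had 4 paralogues measured. AT1G80750 was at 569, 560, 853 and 604 in stage I, at 289, 295, 282 and 267 in stage II and at 75.5, 60.8, 104 and 59.5 in stage III. These values fell at each step without overlap, and the fall from stage I to III was 8.47-fold (log2 difference -3.08, SE 0.19, adjusted p = 1.21e-07). Its departure was -0.65 from stage I to II (SE 0.21, adjusted p = 0.0347, unadjusted p = 0.00645), -0.55 from II to III (SE 0.21, adjusted p = 0.0239, unadjusted p = 0.0178) and -1.19 from I to III (SE 0.21, adjusted p = 5.79e-05, unadjusted p = 2.37e-05). The call from stage I to II was lost in 7 of the 12 fits without 1 array (any array of stages I and II other than stage I replicate 4). The call from stage II to III was lost in 3 of them (without stage II replicate 2 or stage III replicate 1 or 2) and in the high class (-0.21, adjusted p = 0.452), and it held in the low class (-0.88, adjusted p = 0.00592). The call from stage I to III held in all 12, and in the high (-0.87, adjusted p = 0.00673) and the low class (-1.51, adjusted p = 0.000309).

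The other 3 L7 paralogues also fell from stage I to III. AT2G01250 was at 3185, 2870, 6393 and 6964 in stage I and at 1371, 1448, 1831 and 1685 in stage III (log2 difference -1.51). AT2G44120 went from 1699, 1777, 1371 and 1138 to 771, 430, 190 and 139 (-2.26), and AT3G13580 from 1202, 978, 1531 and 1516 to 249, 248, 321 and 194 (-2.36). AT3G13580 departed downwards too, by -0.46 (SE 0.20, adjusted p = 0.0393, unadjusted p = 0.0336), a call that was lost on high-class arrays alone (-0.32, adjusted p = 0.219) and in 5 of the 12 fits without 1 array. On high-class arrays alone AT2G44120 departed downwards from stage I to III and from II to III, where 84.7% and 74.4% of all probe sets departed in either direction. The log2 ratio of AT1G80750 to the mean of its 3 paralogues was -1.68 ± 0.19 (SD, n = 4) in stage I, -2.42 ± 0.14 in stage II and -2.72 ± 0.43 in stage III. Stages II and III both lay below stage I (differences -0.74 and -1.04, exact p = 0.0286 each).

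S9, a small-subunit protein at the entry of the mRNA channel, had a bright and a dim paralogue. AT5G15200 was at 3446, 3690, 6510 and 7756 in stage I and at 2188, 2171, 2547 and 1619 in stage III (log2 difference -1.26, SE 0.34, adjusted p = 0.00737). AT5G39850 was at 198, 164, 152 and 60.5 in stage I, at 82.7, 114, 24.8 and 39.6 in stage II and at 39.4, 25.9, 3.07 and 2.57 in stage III. The last 2 values, both on high-class arrays, are below the background signal of 14.78, so the size of its fall is not given as a fold, and its log2 values over stage III depend on the pseudocount. Its departure passed as lower (adjusted p = 0.0379, unadjusted p = 0.0324), at -1.44 with the pseudocount of 2.37. With a pseudocount of 11 it was -0.72 and did not pass (adjusted p = 0.133). On the low-class arrays, where all stage III signals were above background, it was -0.90 (adjusted p = 0.0162). The call was lost without stage I replicate 1, 2 or 3 or stage III replicate 3 or 4. The log2 ratio of AT5G39850 to AT5G15200 did not separate stages I and III (exact p = 0.114, groups overlapping).

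**Figure D3:**
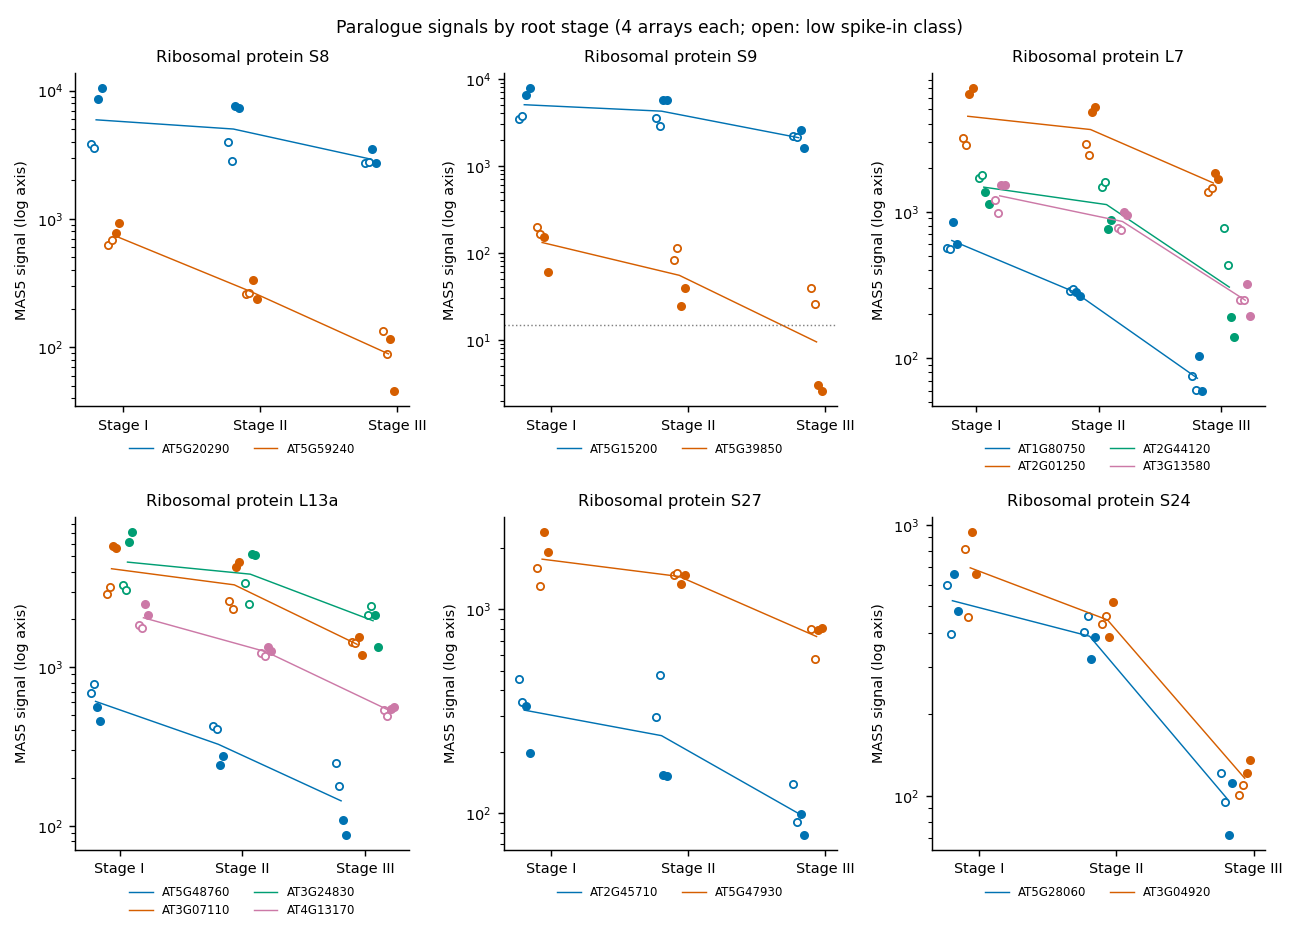
MAS5 signals (log axis) of the paralogues of S8, S9, L7, L13a, S27 and S24 by stage, 4 arrays each, joined at the geometric means, with open circles for the low spike-in class and the dotted line in the S9 panel for the background of 14.78. The lines of S8 spread apart from stage I to III, and that of AT1G80750 moves away from the other L7 genes. In S9 the spread includes 2 stage III signals below background, and the ratios of stages I and III overlapped. The lines of S24 run side by side.

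S24, a small-subunit protein, was a case where both paralogues left the average of the 29 together. AT5G28060 was at 601, 397, 660 and 482 in stage I, at 401, 459, 319 and 386 in stage II and at 121, 94.6, 71.9 and 111 in stage III. AT3G04920 was at 818, 456, 944 and 660, then at 431, 460, 385 and 518, then at 101, 110, 121 and 135. Neither gene's stages II and III overlapped. From stage II to III the departures were -0.59 for AT5G28060 (SE 0.22, adjusted p = 0.0235, unadjusted p = 0.0174) and -0.54 for AT3G04920 (SE 0.23, adjusted p = 0.0394, unadjusted p = 0.031). The values from stage I to III were -0.50 (SE 0.22, adjusted p = 0.0437, unadjusted p = 0.0376) and -0.66 (SE 0.23, adjusted p = 0.0135, unadjusted p = 0.0108). The ratio between them changed by 0.16 on the log2 scale from stage I to III (exact p = 0.571). In the high class alone the departures from stage I to III were -0.35 (adjusted p = 0.276) and -0.33 (adjusted p = 0.233), and in the low class both passed (adjusted p = 0.0266 and 0.0107). From stage II to III both calls were lost without stage II replicate 2, stage III replicate 2 or stage III replicate 3, and that of AT3G04920 also without stage II replicate 1 or 4 or stage III replicate 1, in 6 of the 12 fits in all. That of AT5G28060 from stage I to III was lost in 7 of the 12 fits without 1 array and that of AT3G04920 in 1 of them, without stage I replicate 1.

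For L13a, a large-subunit protein with 4 paralogues measured, AT3G24830 fell less than the average. It was at 3298, 3090, 6137 and 7153 in stage I, at 3391, 2504, 5154 and 5077 in stage II and at 2141, 2444, 2123 and 1339 in stage III. The departure from stage I to III was 0.67 (SE 0.30, adjusted p = 0.0446, unadjusted p = 0.0384), with 1.03 in the low class (adjusted p = 0.00669) and 0.30 in the high class (adjusted p = 0.367). It was lost in 6 of the 12 fits without 1 array. AT3G07110 went from 2908, 3186, 5800 and 5669 to 1445, 1416, 1544 and 1198, AT4G13170 from 1857, 1769, 2516 and 2139 to 541, 495, 545 and 562, and AT5G48760 from 687, 789, 558 and 455 to 250, 178, 109 and 88.2. The ratio of AT3G24830 to these changed by 0.63 (exact p = 0.0857).

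S27, a small-subunit protein with a zinc finger, had AT5G47930 at 1607, 1308, 2412 and 1923 in stage I, at 1479, 1519, 1336 and 1482 in stage II and at 805, 569, 795 and 807 in stage III. Its fall of 2.40-fold was smaller than the average, with a departure of 0.63 (SE 0.22, adjusted p = 0.0128, unadjusted p = 0.0103) that held in each of the 12 fits without 1 array. By class it was 0.85 in the high (adjusted p = 0.00602) and 0.41 in the low class (adjusted p = 0.0902). In the high class the paralogue AT2G45710 departed upwards as well, from stage I to III and from II to III. There 84.7% and 74.4% of all probe sets departed in either direction. AT2G45710 went from 454, 352, 335 and 196 through 296, 477, 154 and 152 to 138, 90.4, 99.3 and 78.3, and the ratio of AT5G47930 to it changed by 0.41 (exact p = 0.343). AT1G18540, the only gene measured for the large-subunit protein L6, was at 2393, 2164, 4127 and 4513, then at 2077, 1829, 3119 and 3442, then at 1350, 1319, 1492 and 1429. It departed upwards by 0.73 (SE 0.27, adjusted p = 0.0188, unadjusted p = 0.0155), with 0.72 in the high (adjusted p = 0.0301) and 0.74 in the low class (adjusted p = 0.0114), and it did not pass without stage I replicate 1 or 2.

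Of the 10 genes that departed from stage I to III, AT5G59240 (S8), AT1G80750 (L7) and AT1G18540 (L6) passed in each spike-in class taken alone. So did AT5G39850 (S9), but in the high class both its stage III signals were below background. With the mean of all measured ribosomal protein genes as reference in place of the 29, the 4 upward departures did not pass (adjusted p = 0.0616 for AT5G47930, 0.0788 for AT1G18540, 0.101 for AT5G20290 and 0.168 for AT3G24830). The direction of departures went with the brightness of the probe set. Across the 29 genes the stage III minus I log2 difference and the mean log2 signal on the stage arrays had a Pearson correlation of 0.83 and a Spearman correlation of 0.82, over genes that share arrays and are not independent. In 7 of 10 proteins the paralogue with the brightest probe set fell least. Across the 104 other ribosomal protein genes Pearson's correlation was -0.42 and Spearman's -0.01. The part of signal brightness in the departures was not tested.

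The proteins with no departing gene in the fit described above are given by their log2 differences from stage I to III. The L4 genes, whose protein lines the exit tunnel for the growing chain, had -1.51 (AT3G09630) and -1.64 (AT5G02870). Those of L12, a protein at the base of the ribosomal stalk, were between -2.17 (AT2G37190) and -1.50 (AT3G53430), with -2.03 for AT5G60670. For L14 they were -2.38 (AT2G20450) and -1.35 (AT4G27090), for S21 -1.74 (AT5G27700) and -2.03 (AT3G53890). The single genes of S13 (AT3G60770), S3 (AT5G35530) and L18 (AT5G27850) had -1.65, -1.70 and -1.48. Both L14 genes departed when the spike-in class was a term of the fit (-0.49, adjusted p = 0.0179 for AT2G20450 and 0.54, adjusted p = 0.0139 for AT4G27090), and both also passed after quantile normalization. AT5G27850 of L18 departed in both of these settings too, upwards with the class term, and AT3G53430 of L12 departed upwards with the class term. Both L4 genes departed upwards among low-class arrays alone. In these 3 settings 88.1%, 82.3% and 74.7% of all probe sets departed in either direction. The ratio of the L14 genes, AT4G27090 over AT2G20450, changed by 1.03 (exact p = 0.0857, groups overlapping).

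In all, 18 distinct ratios within the 10 proteins were tested in 8 comparisons, which makes 144 tests with no adjustment, and 18 of them had an exact p under 0.05. Between stages, groups did not overlap in 3 of 54 ratios, those of S8 and AT1G80750 above. The same ratios for 92 genes of 34 other ribosomal proteins did not overlap in 19.3% of 228 cases, with 6.58% for stage II minus I, 21.1% for III minus II and 30.3% for III minus I. Among lines the counts were 4 of 90 ratios here and 1.58% of 380 there. Among the other proteins, the ratio of AT3G28500 to its paralogues of the stalk protein P2 was higher by 1.97 in stage III than in stage I, and that of AT5G23900 to the other L13 genes changed by -1.64; both were chosen after their values were seen.

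Some of the genes differed between the spike-in classes, and those of L7 did so in opposite directions. In a fit of the 12 stage arrays with stage as a term, 6 of the 29 genes were higher and 5 lower in the high class than in the low, against 10.8% of all probe sets called in either direction. Among the L7 genes AT2G01250 was higher by 0.79 (SE 0.16, adjusted p = 0.00774) and AT2G44120 lower by -1.07 (SE 0.21, adjusted p = 0.00569). AT5G20290 (S8), AT5G35530 (S3), AT5G27850 (L18), AT4G27090 (L14) and AT1G18540 (L6) were also higher, by 0.59 to 0.90. AT5G39850 (S9), AT5G48760 (L13a), AT2G45710 (S27) and AT3G53430 (L12) were lower, with -1.72, -0.77, -0.75 and -0.72. Across the 29 genes, which share arrays, the class difference and the mean log2 signal on the stage arrays had a Pearson correlation of 0.74. The part of signal brightness in the class differences was not tested. Each class holds 2 arrays of every stage. On the stage arrays the class cannot be told apart from the replicate numbers 1 and 2 against 3 and 4.

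**Figure D4:**
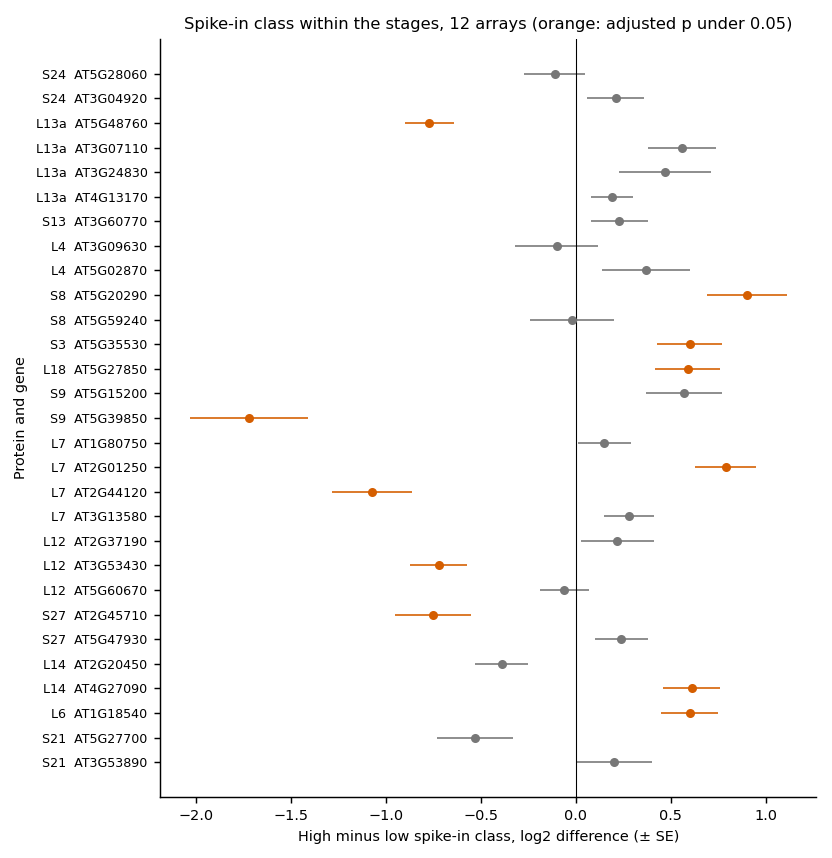
Log2 difference between the high and the low spike-in class (6 arrays each, stage as a term, ± SE from limma) for the 29 genes by protein. Orange points passed an adjusted p of 0.05: AT2G01250 of L7 lies at 0.79 and its paralogue AT2G44120 at -1.07.

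Among the marker lines the clearest shift was a lower level in SCR. There 23 of 29 genes were lower than the mean of the other 4 lines and 0 higher, with a median of -0.94 (range -1.55 to -0.39), against 17.5% of all probe sets called and 9.86% called lower, and a median over all probe sets of -0.07. AT3G13580 of L7 led with signals of 293, 349 and 326 against 706 to 1473 in the other lines (log2 difference -1.55, SE 0.21, adjusted p = 0.000287). AT5G48760 of L13a followed with 218, 206 and 348 against 529 to 988 (-1.50, SE 0.20, adjusted p = 0.000264), and AT1G80750 of L7 was at 118, 148 and 179 against 182 to 736 (-1.30, SE 0.23, adjusted p = 0.00175). These 3 genes are among 9 of the 29 whose SCR signals lay below all other lines, against 5.11% of all probe sets whose groups did not overlap. The genes that did not pass were AT3G24830, AT5G02870, both S8 genes, AT5G39850 and AT2G45710. Of the other ribosomal protein genes 73 of 104 were lower and 0 higher (median -0.87), and of the biogenesis genes 7 of 7 (median -0.85).

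The SCR result differed between its arrays. The mean log2 signal of the 29 genes was 10.25 on replicate 1, of the high spike-in class, and 9.35 and 9.67 on replicates 2 and 3, of the low class, while arrays of the other lines lay between 10.36 and 11.07. The 5 measured of 14 heat shock genes had a mean log2 signal of 6.04 on replicate 1 and of 9.93 and 10.32 on replicates 2 and 3, against 4.53 to 7.56 in the other lines. Among high-class arrays alone, where replicate 1 stands for SCR, the median was -0.37, against -0.94 with all SCR arrays. AT5G48760 and AT3G13580 lay far below that median of the high class, with log2 differences of -1.69 and -1.68. A block for the class also leaves replicate 1 to stand for SCR, since no other line has low-class arrays, so it is no further check. With that block AT1G80750 had -1.61. Without SCR replicate 2 there were 5 calls (7.69% of all probe sets called) and without replicate 3 there were 7 (7.91%). With all SCR arrays that share was 17.5%. The 3' over 5' GAPDH signal was 1.29, 4.09 and 0.717 on SCR replicates 1, 2 and 3, while other line arrays had 0.717 to 1.95, so replicate 2, with the lowest mean of the 29 genes among line arrays, also had the highest GAPDH value among them. The part of spike-in class, heat shock genes and GAPDH in the SCR difference was not tested.

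In SCR the one gene to depart from the average of the 29 was AT2G45710 of S27, in a comparison where 58% of all probe sets departed, 56.9% upwards. It was at 393, 252 and 313 in SCR against 286 to 637 in the other lines, so its own signals overlapped, and relative to the 29 it stood higher (departure 0.60, SE 0.18, adjusted p = 0.0106, unadjusted p = 0.00376). Its paralogue AT5G47930 was at 1766, 948 and 1180 against 1882 to 4161. The departure was 0.42 with the class as a block and among high-class arrays, where SCR rests on replicate 1 in both cases. With all SCR arrays, 4 of the 29 genes had an unadjusted p under 0.05. The log2 ratio of AT2G45710 to AT5G47930 was higher in SCR by 0.55 (exact p = 0.00879). That of the L4 gene AT3G09630 to AT5G02870 was -0.02 ± 0.04 (SD, n = 3) in SCR against 0.30 ± 0.22 (n = 12), with no overlap (difference -0.31, exact p = 0.0044, the smallest that 3 arrays against 12 can give).

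**Figure D5:**
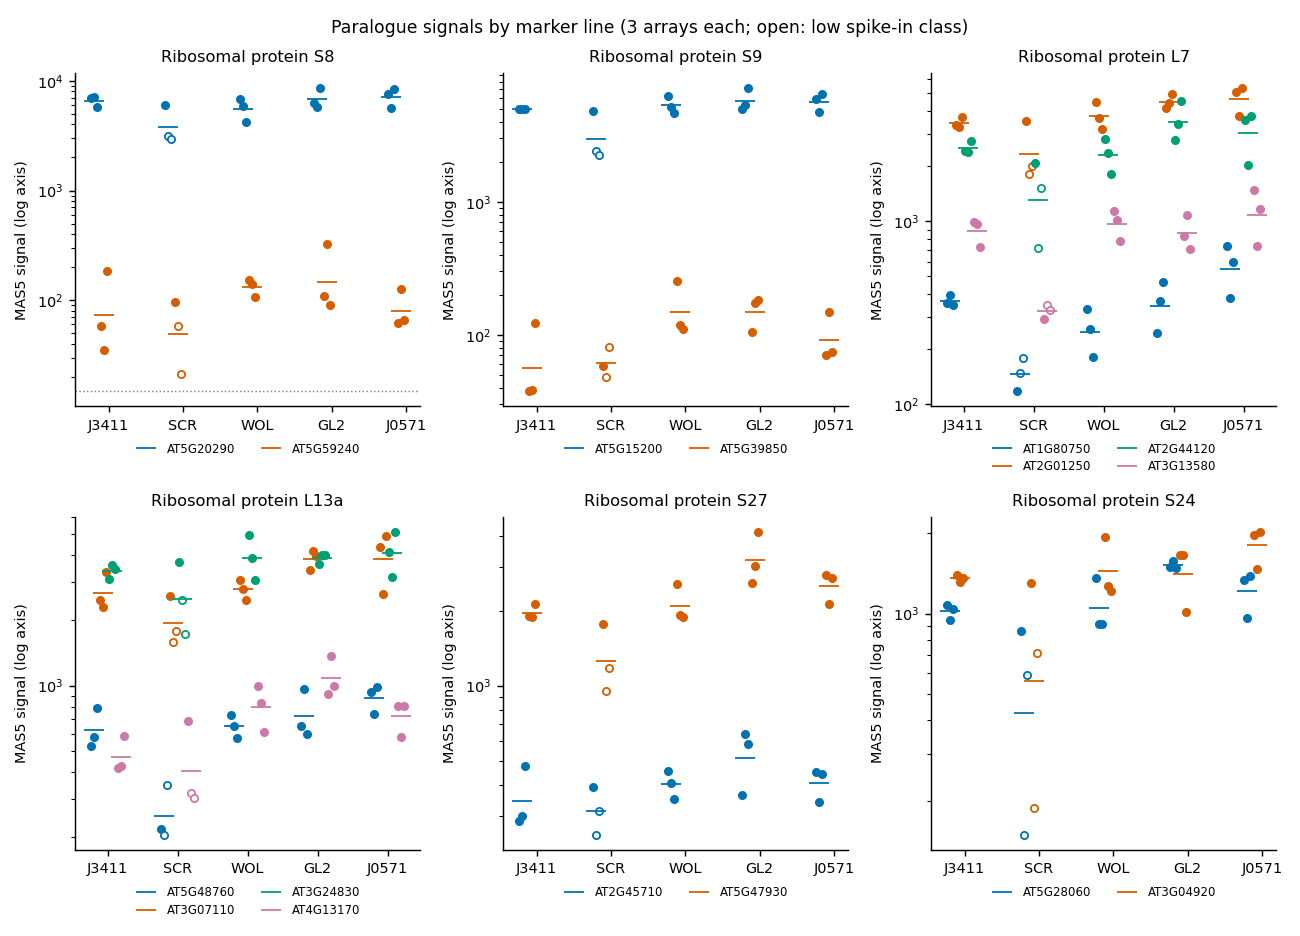
MAS5 signals (log axis) of the paralogues of S8, S9, L7, L13a, S27 and S24 in the 5 marker lines, 3 arrays each, with bars at the geometric means, open circles for the low spike-in class and a dotted line at the background of 14.78 where it falls within the panel. AT3G13580 and AT1G80750 of L7 and AT5G48760 of L13a lie lower in SCR than in every other line.

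In the other lines few of the 29 genes passed. In GL2, 2 of 29 genes were higher and 0 lower (12.8% of all probe sets called, 5.1% higher; median of the 29 0.49, 10 with an unadjusted p under 0.05). These were AT4G13170 of L13a, at 916, 1374 and 1000 (log2 difference 0.91, SE 0.24, adjusted p = 0.0216), and AT5G47930 of S27, at 2579, 3021 and 4161 (0.74, SE 0.22, adjusted p = 0.036). Among the Columbia lines alone neither passed, and the median was 0.19. In J0571, 2 of 29 were higher and 0 lower (4.69% called, 2.44% higher; median 0.42, 7 with an unadjusted p under 0.05): AT1G80750 of L7, at 736, 379 and 598 (1.07, SE 0.23, adjusted p = 0.0137), and AT5G48760 of L13a, at 931, 737 and 988 (0.75, SE 0.20, adjusted p = 0.0437). Among the Columbia lines alone 0 passed there too, as without J0571 replicate 1 or 3, while 3 passed without replicate 2. The 5 line comparisons share arrays, since each line serves as a control for the others, and SCR, the line with the lowest values, is among the controls of GL2 and J0571. In J0571 the biogenesis genes PES and DIM1A were higher as well, by 0.98 and 1.01.

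In J3411 and WOL 0 of 29 genes passed in the limma fit (10.3% and 6.66% of all probe sets called; 2 and 1 genes with an unadjusted p under 0.05), with medians of 0.02 and 0.08. AT4G13170 of L13a was at 418, 428 and 585 in J3411, with a log2 difference of -0.58 (adjusted p = 0.163), and it was the 1 gene to pass among high-class arrays alone. No gene departed from the average of the 29 in J3411, WOL, GL2 or J0571, where 7.07%, 4.38%, 25.9% and 5.91% of all probe sets departed and 2, 0, 1 and 1 of the 29 genes had an unadjusted p under 0.05.

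A few paralogue ratios of single lines lay beyond those of all other line arrays, some by a narrow margin. The log2 ratio of AT5G28060 to AT3G04920 of S24 was -0.15, -0.07 and 0.54 in GL2 and lay above all other lines, which averaged -0.46 ± 0.11 (SD, n = 12; difference 0.57, exact p = 0.0044). The difference was 0.35 without GL2 replicate 3, and 0.69 without replicate 1. In GL2 AT5G28060 was at 1489, 1574 and 1479 and AT3G04920 at 1654, 1656 and 1013. The ratio of AT1G80750 to the other L7 genes was highest in J0571, at -2.16 ± 0.13 (n = 3) against -2.74 ± 0.37 (n = 12; difference 0.57, exact p = 0.0044). The margin was narrow: the lowest J0571 array was at -2.25, and J3411 replicate 2 was at -2.31. That of AT3G13580 to the other L7 genes was highest in WOL, at -0.41 ± 0.07 against -0.97 ± 0.39 (difference 0.56, exact p = 0.0044), where the comparison group holds the low values of SCR. The lowest WOL array was at -0.50, and J3411 replicates 1 and 2 were close to it, at -0.52 and -0.59. These p-values are not adjusted, and 5.26% of the corresponding ratios of other ribosomal proteins did not overlap in SCR, 1.32% in GL2, 1.32% in WOL and 0.0% in J0571.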

How the data were processed

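RNA of 27 Arabidopsis root samples was hybridised to ATH1 arrays. The deposited values are linear signal intensities computed with MAS5, per the submitters' processing notes, and no source used here gives its settings or version. Of 22810 probe sets 64 controls were left out, and 22746 were tested; 13513 are assigned to 1 gene, 503 to several and 8730 to none. The number of arrays, 3 or 4 per group, limits the precision, and median signals were 27.3 to 43.7 per array.

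Signals were tested as log2(signal + 2.37), the 10th percentile of all values, with limma 3.58.1 in R 4.3.3 (lmFit and eBayes with an intensity trend, Benjamini-Hochberg adjustment over all 22746 probe sets, threshold 0.05). This pseudocount understates the change of dim genes. The 15 line arrays (each line against the mean of the other 4) and the 12 stage arrays were fitted separately. Departures are from the same fit after subtraction of the mean log2 signal of the 29 genes on each array. Paralogue ratios, a gene minus the mean of its measured paralogues on the log2 scale, were tested with a two-sided exact permutation test (scipy 1.17.1). The background of 14.78 is the 95th percentile of 12 control probe sets. The fits were tested on simulated data.

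The genes and lists were chosen with earlier results of these data known. For genes that departed in any comparison, and for their paralogues, the value on every array of stages I and III is given. Values of stage II and of the lines are given for some of them only, in part as ranges. Genes of other lists are named by smallest adjusted p, up to 4 a list. Loci were assigned to proteins by standard nomenclature. The low and high spike-in classes were read from the cre control signals. Sequences and promoters were not used here. Alternatives were other pseudocounts, quantile normalization, leaving out dim probe sets, no trend, a replicate block, the spike-in class, Columbia lines alone, 1 fit of all arrays, each array left out and, added after seeing the data, the low class alone and all ribosomal protein genes as reference.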

Additional observations from a re-analysis of the deposited data

Results flagged for a closer look

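Of 87 sets of 4 stage signals tested, 1 per gene and stage, 4 held an array set apart from the other 3 by Dixon's test, where chance gives about 1 in 20. AT5G20290 of S8 was at 3526 on stage III replicate 3, against 2722, 2751 and 2772. AT1G80750 of L7 was at 853 on stage I replicate 3, against 560, 569 and 604. AT5G47930 of S27 was at 569 on stage III replicate 2, against 795, 805 and 807. AT5G27700 of S21 was at 916 on stage III replicate 1, against 393, 408 and 432.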

How the results depend on the processing

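The fall of the 29 genes from stage I to III and from II to III was called for 24 to 29 genes with any 1 array left out. Its median was -2.22 and -1.51 on high-class arrays. From stage I to II, 9 genes were called with a replicate block or a spike-in class block, where 26.1% and 26% of all probe sets were called. Same-numbered stage arrays deviated together with r of 0.10 to 0.29 (median 0.20, over 0.1 in 11 of 12 pairs), against a median of -0.10 for different numbers. This is a hint of pairing that the labels do not state. Same-numbered stage arrays also share a spike-in class, and pairs of the same class with different numbers were not examined separately. The hint missed the rule that every pair exceed 0.1, and the line arrays had -0.22 to 0.12, so no block was used. With the replicate block 13 genes departed from stage I to III (88% of all probe sets), the 10 and AT5G15200, AT2G20450 and AT4G27090. In that setting 7 departed from stage II to III (82.7% of all) and 1 was called in J0571 (3.77% of all). With the class block 15 departed from stage I to III (88.1% of all probe sets), and after quantile normalization 14 (82.3%). From stage II to III, 6 departed after quantile normalization, 1 without the trend, 9 with the class block, 10 in the low class and 5 against all ribosomal protein genes. Of all probe sets 68.7% departed after quantile normalization, 83% with the class block and 65.9% in the low class. From stage I to II, 1 departed without the trend and 0 in a fit of all arrays. In the high class 0 departed (22.1% of all probe sets) and in the low class 1 (10.9%). In SCR the median was -0.37 with the class block and in the high class, where replicate 1 alone stands for SCR in both. With all SCR arrays, 2 genes departed with the larger pseudocount, 7 after quantile normalization (52.2% of all probe sets), 2 with the filter and 3 against all ribosomal protein genes. In J3411 the median was -0.03 after quantile normalization and -0.12 with the class block or in the high class, where 1 gene was called and 1 departed; 1 departed in a fit of all arrays. The WOL median was -0.07 with the class block or in the high class and -0.29 among Columbia lines. In GL2, 0 were called after quantile normalization, 1 with the class block or in the high class, and 0 among Columbia lines (median 0.19). In J0571, 1 was called without the trend or in a fit of all arrays, and 0 among Columbia lines (median 0.12); 1 departed with the class block, in the high class and among Columbia lines. The causes were not tested.

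With each array left out in turn, calls ranged from 0 to 6 in GL2, 0 to 3 in J0571, 0 to 1 in J3411 and 5 to 25 in SCR. Without SCR replicate 2, which left 5, 7.69% of all probe sets were called in SCR. Without SCR replicate 1, which left 25, the share was 22.4%. Departures ranged from 0 to 1 in GL2 and J3411, 1 to 5 in SCR, 1 to 2 from stage I to II, 0 to 3 from II to III and 3 to 12 from I to III. The 3 were left without stage I replicate 1 (85.1% of all probe sets departed), and the 0 without stage II replicate 2 (77.2%). Medians ranged from -0.07 to 0.07 in J3411 and from -0.05 to 0.21 in WOL. Over all the alternatives together, and not only those with an array left out, 287 values for single departures kept their call. A further 83 lost it, with no change of direction. The ratio of AT1G80750 from stage II to III, -0.30, turned to 0.15 in the high class. Ratios nearer 0 also changed sign: AT3G04920 from I to III (0.02 in the high class, -0.32 to 0.01 without 1 array, the latter without stage III replicate 1) and from II to III (-0.07 in the low class, -0.02 without stage II replicate 2, -0.12 without stage III replicate 3), and AT3G13580 from I to III (0.07 in the high class, -0.19 to 0.06 without 1 array, the latter without stage III replicate 1). Each gene had 1 probe set, so another choice of probe set was not run.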
